A study of Mus musculus with 12 samples.

Results

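Mitochondrial ribosomal protein genes were followed in the neocortex of Chd8+/+ and Chd8+/- mice at embryonic day 12.5 (E12.5) and postnatal day 5 (P5). They were taken by name, as every gene whose symbol is Mrpl or Mrps followed by a number and at most a letter a or b, with names ending in -ps left out. This gave 77 of the 46603 genes counted, 49 with an Mrpl and 28 with an Mrps symbol. The rule uses names and no measured value, although it was set with earlier results of these data known. The mice were of the C57Bl/6J background. Chd8+/- mice carry 1 null allele of Chd8, which encodes a chromatin remodeling factor, in every cell. The allele was made by crossing mice with a loxP-flanked exon 3 to a ubiquitous β-actinCre line, and the Chd8+/+ mice have 2 intact alleles. There were 3 libraries in each of the 4 groups (E12.5 Chd8+/+, E12.5 Chd8+/-, P5 Chd8+/+ and P5 Chd8+/-), 12 in all, from both hemispheres at E12.5 and a single hemisphere at P5. The labels do not say whether the libraries of a group came from separate litters, so p-values measure the spread between these libraries. Tissue of this kind mixes cell types, and fewer cells of a type cannot be told apart from less RNA per cell.

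The mitochondrial ribosome translates the few messenger RNAs that mitochondrial DNA encodes, all for subunits of the respiratory chain and ATP synthase. Its ribosomal RNAs come from mitochondrial DNA, whereas all of its proteins are encoded in the nucleus, translated in the cytosol and imported. Some of these proteins descend from bacterial ribosomal proteins and others were gained in mitochondria. Of the 77 genes, 51 encode proteins of the large subunit, 29 with a bacterial counterpart and 22 specific to mitochondria. A further 25 encode proteins of the small subunit, 16 with a bacterial counterpart and 9 specific to mitochondria. Mrps30 and Mrps18a belong to the large subunit in spite of their names. Mrps18a, although a homologue of bacterial bS18, was counted there with the proteins specific to mitochondria. Mrps36, now known as a component of the alpha-ketoglutarate dehydrogenase complex, belongs to neither subunit.

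The genes lie on 17 chromosomes. Mrpl46 (chr7:78775236-78783531, minus strand, GRCm38) and Mrps11 (chr7:78783119-78792989, plus strand), which encode a large and a small subunit protein, lie head to head with overlapping starts. In all, 29 of the 77 genes share exon bases with another gene, and 9 of them share over 20%. Strand was not used in the recorded P5 counting, so for these genes the counts are less certain. The share was 88.0% for Mrpl53, 77.8% for Mrps34, 69.8% for Mrps25, 37.8% for Mrps30 and 36.0% for Mrpl19, the 5 highest. Mrpl53 had between 2 and 9 counts in every library and was the only member that did not pass the filter on low counts, which left 76 genes to test. Of the copies named as pseudogenes, Mrpl23-ps1 had 230 to 366 counts per library against 641 to 886 for Mrpl23, so the split of reads between this pair is uncertain, and Mrpl48-ps had 8 to 21.

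Because many of these genes moved together between the stages, the stretch before their start sites is shown for 8 of them. Promoter windows from 250 bases before to 50 bases after a start site (RefSeq, GRCm38.p6) were matched by symbol for 68 of the 77 genes. They were searched on both strands for 3 motifs linked to nuclear-encoded mitochondrial genes, the NRF1 core, whose letters stand in capitals in Mrpl9 and Mrpl32, the ETS core CCGGAAGT, which GABP recognizes, and the YY1 core AAGATGGCG. The stretches below are the 150 bases before the start site, 5′ to 3′ on the gene's strand, and capitals mark a motif or its reverse complement. The first 2 hold the NRF1 core, the next 2 the ETS core and the next 2 the YY1 core. The last 2 belong to genes that DESeq2 called at P5 and hold none of these letters. Among the other genes that DESeq2 called at P5, Mrpl48 held the ETS core and Mrps18a the YY1 core in such a window. Mrpl12 and Mrpl23 held no match.
Mrpl9 (chr3:94443186-94443335, plus strand): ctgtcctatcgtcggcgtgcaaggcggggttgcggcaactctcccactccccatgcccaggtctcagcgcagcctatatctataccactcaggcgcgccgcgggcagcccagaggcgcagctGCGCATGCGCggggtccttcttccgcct
Mrpl32 (chr13:14613038-14613187, minus strand): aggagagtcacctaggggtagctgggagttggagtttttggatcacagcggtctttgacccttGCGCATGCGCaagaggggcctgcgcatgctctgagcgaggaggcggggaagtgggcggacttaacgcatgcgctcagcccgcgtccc
Mrpl27 (chr11:94653641-94653790, plus strand): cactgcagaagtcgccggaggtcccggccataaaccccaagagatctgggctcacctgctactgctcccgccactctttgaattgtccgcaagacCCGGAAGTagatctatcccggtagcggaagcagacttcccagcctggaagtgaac
Mrps26 (chr2:130563607-130563756, plus strand): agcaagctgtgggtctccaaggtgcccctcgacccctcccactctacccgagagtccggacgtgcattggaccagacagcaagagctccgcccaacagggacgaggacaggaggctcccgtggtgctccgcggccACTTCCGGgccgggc
Mrps11 (chr7:78782981-78783130, plus strand): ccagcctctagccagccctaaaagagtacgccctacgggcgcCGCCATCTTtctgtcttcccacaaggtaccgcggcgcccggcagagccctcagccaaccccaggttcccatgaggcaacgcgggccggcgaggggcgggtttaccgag
Mrpl36 (chr13:73330859-73331008, plus strand): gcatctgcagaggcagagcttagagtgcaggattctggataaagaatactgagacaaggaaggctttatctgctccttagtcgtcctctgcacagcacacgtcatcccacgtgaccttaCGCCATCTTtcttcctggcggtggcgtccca
Mrpl20 (chr4:155802728-155802877, plus strand): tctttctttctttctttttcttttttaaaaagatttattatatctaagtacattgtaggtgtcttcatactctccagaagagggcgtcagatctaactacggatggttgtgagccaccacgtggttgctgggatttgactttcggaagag
Mrpl28 (chr17:26123353-26123502, plus strand): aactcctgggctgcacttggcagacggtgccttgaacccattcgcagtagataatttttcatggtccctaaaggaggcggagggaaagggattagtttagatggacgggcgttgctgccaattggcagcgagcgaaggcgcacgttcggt

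The 300-base windows held the NRF1 core in 3 of the 68 genes (4.41%, against 1.07% of all 27025 genes in the table) and the ETS core in 11 (16.2%, against 4.31%). The YY1 core was found in 8 of the 68 (11.8%, against 1.64%), and any of the 3 in 21 (30.9%, against 6.76%). Of the genes in the table that were also tested in these libraries, 11.8% held at least 1 of the 3. By motif, 1.96% of these tested genes held the NRF1 core, 7.50% the ETS core and 2.86% the YY1 core. A match describes the letters in the window and not binding. The 21 genes with a match had a median log2 fold change from E12.5 to P5 of -0.27 in Chd8+/+ and the 46 tested genes without one had -0.37, both below 0.

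Depth was between 38774591 and 54695236 counts per library. Chd8 itself was lower in every Chd8+/- library, at 163.6 to 169.3 CPM (counts scaled to library size) against 233.3 to 238.3 at E12.5 and at 94.1 to 97.7 against 143.0 to 147.7 at P5 (adjusted p = 0.0056 and 7.2e-05, edgeR's quasi-likelihood test with Benjamini-Hochberg adjustment over all genes). The neocortical markers Emx1, Emx2, Lhx2, Pax6, Tbr1 and Neurod6 passed the filter on low counts at both stages. Each library was sequenced in 2 runs, whose counts gave a chi-square of 1.17 to 1.51 per gene against each other. Libraries of the same group gave 6.58 to 16.7. The exceptions were the pairs with replicate 3 of the P5 Chd8+/- group, at 40.0 and 45.4. In that library Lars2, a mitochondrial leucyl-tRNA synthetase, stood at 6197 CPM, against 655.7 to 973.2 CPM in the other P5 libraries. The members' results at P5 are therefore also given without this library.

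Levels per length spread widely within the family although the proteins share a complex. On the FPKM scale (fragments per kilobase of merged exons, scaled to library size with TMM factors over all 12 libraries), the mean over the 12 libraries had a median of 13.97 across the 76 genes, and 53 of them reached 10. The highest level was 39.1 times the lowest, that of Mrps34. This ratio is uncertain, since Mrps34 shares 77.8% of its exon bases with other genes. Mrpl42, a large subunit protein specific to mitochondria, stood first with 78.9, 92.2 and 84.8 FPKM in the E12.5 Chd8+/+ libraries. Its P5 Chd8+/+ libraries had 57.5, 63.1 and 55.4 FPKM, so the stages did not overlap and no other member reached its P5 level at either stage. Mrps21, the counterpart of bacterial bS21, followed with a mean of 45.9 ± 2.5 FPKM (SD, n = 3) in E12.5 Chd8+/+ and 35.0 ± 2.0 in P5 Chd8+/+. Mrpl28, Mrpl34 and Mrpl41 came next, with means over the 12 libraries of 36.1, 34.4 and 33.4 FPKM. These 3 neighbours overlapped between libraries, from 28.7 to 43.5 FPKM for Mrpl28, 27.9 to 40.8 for Mrpl34 and 27.5 to 40.2 for Mrpl41.

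At the lower end, Mrps34 had 1.19 to 1.55 FPKM in the E12.5 and 1.91 to 2.74 FPKM in the P5 libraries. Most of its exon bases are shared with Nme3 and Mapk8ip3, so this level is uncertain. Mrpl33 (2.52 to 2.87 FPKM), Mrps35 (2.14 to 3.48), Mrps10 (2.66 to 3.83) and Mrps25 (3.02 to 4.17) completed the 5 lowest. The merged exons of Mrpl33 and Mrps35 span 7326 and 8631 bases, against a median of 1929.5 bases in the family, and all of them enter the length by which counts are divided. At the upper end, those of Mrpl42, Mrps21, Mrpl34 and Mrpl41 span 666, 739, 645 and 888 bases. In mean CPM, which is not divided by length, Mrps5 (82.5) and Mrps17 (72.2) lay above Mrpl42 (57.6) in E12.5 Chd8+/+. The order of levels held between the stages, with a Spearman correlation of 0.91 across the 76 genes in Chd8+/+, a description over genes that share libraries. Summed over genes, large subunit members had 2.24 to 2.27 times the CPM of small subunit members in the 6 E12.5 libraries and 2.14 to 2.18 times in the 6 P5 libraries.

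**Figure D1:**
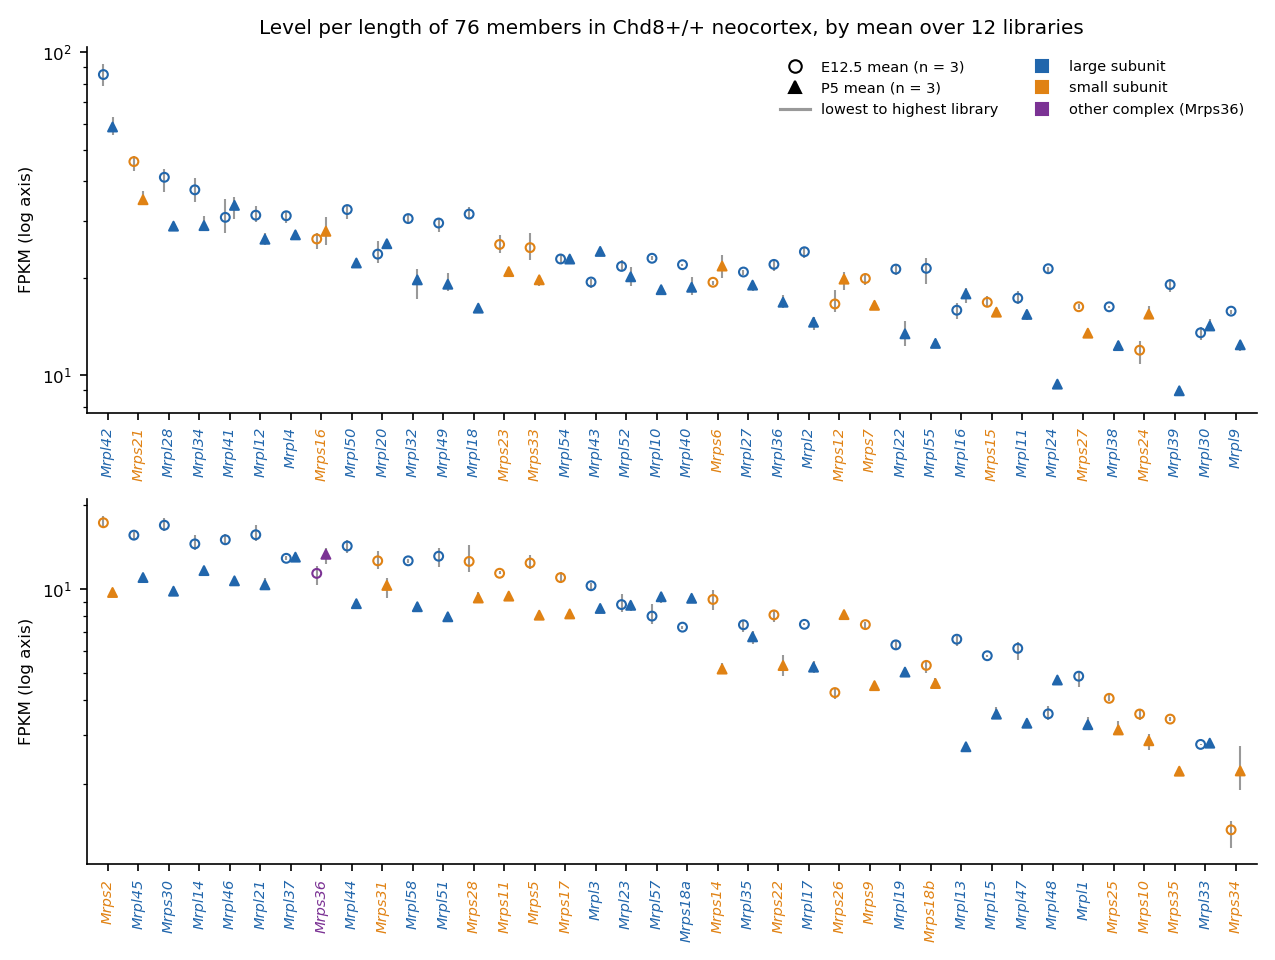
Mean level (FPKM, log axis) of the 76 tested members in Chd8+/+ neocortex, in order of the mean over 12 libraries, with open circles for E12.5, triangles for P5 (n = 3 each) and grey lines from the lowest to the highest library. Mrpl42 stands above all others at both stages, and most members lie lower at P5 than at E12.5.

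Most of the family was lower at P5 than at E12.5. In Chd8+/+ neocortex, 55 of the 76 genes fell and 11 rose (edgeR's quasi-likelihood test, adjusted p under 0.05), where 41.7% of all genes tested fell and 41.4% rose. The median log2 fold change was -0.33, or 0.798 times the E12.5 level, against -0.018 for all 19676 genes. Without replicate 1 of the E12.5 Chd8+/+ group, 6 rose. DESeq2 called 51 lower and 11 higher. In Chd8+/- neocortex, from 6 other libraries, 47 fell and 16 rose, against 41.6% and 41.3% of all genes, and the median was -0.25. The same 47 genes fell in both genotypes and 11 rose in both (39% of all genes in each direction), none was called in opposite directions, and 72 of the 76 had the same sign. Across the 76 genes the stage difference in one genotype followed that in the other, with a Pearson correlation of 0.98. edgeR called Mrpl33, Mrpl41, Mrpl52, Mrpl54 and Mrps15 in neither genotype, and of these 5 DESeq2 called Mrpl41 in Chd8+/- (adjusted p = 0.0499). With offsets that remove the trend of the fold change with gene length, Mrpl41 had log2 fold changes of 0.27 in Chd8+/+ and 0.28 in Chd8+/- (edgeR unadjusted p = 0.0073 and 0.0060), and in Chd8+/+ Mrpl54 had 0.17 and Mrps15 -0.13 (unadjusted p = 0.031 and 0.038). Stage and count table were confounded, since the E12.5 and P5 counts were deposited in separate tables, so that stage and table cannot be told apart.

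**Figure D2:**
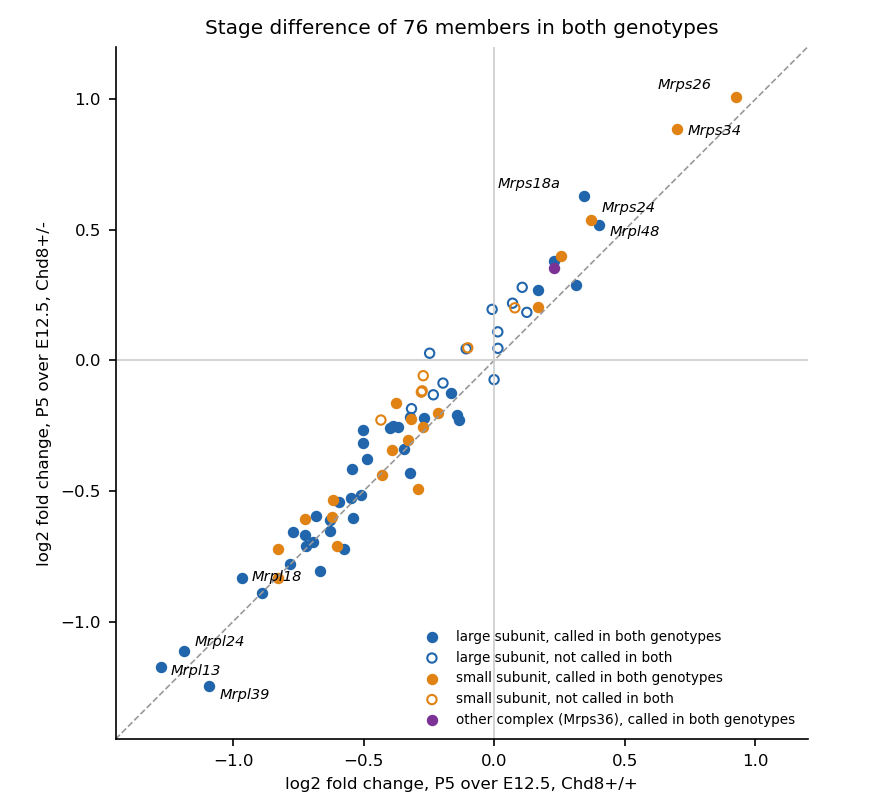
Log2 fold change from E12.5 to P5 of each of the 76 members in Chd8+/+ (x axis) and Chd8+/- (y axis), with filled points for genes called in both genotypes and a dashed line of equality. The points lie along the line from -1.28 to 0.93 in Chd8+/+, most of them below 0 in both genotypes.

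The largest falls were in the large subunit. Mrpl13, the counterpart of bacterial uL13, had 6.25, 6.77 and 6.80 FPKM at E12.5 and 2.71, 2.80 and 2.66 FPKM at P5 in Chd8+/+ (log2 fold change -1.28 ± 0.07 SE, edgeR adjusted p = 1.5e-10). Its Chd8+/- libraries had 6.87, 6.17 and 6.88 FPKM against 3.2, 2.88 and 2.74. The stages were far apart in both genotypes. Mrpl24, whose bacterial counterpart lies at the exit of the peptide tunnel, fell from 21.6, 21.6 and 20.9 to 9.31, 9.70 and 9.16 FPKM (log2 fold change -1.19 ± 0.05 SE, edgeR adjusted p = 8.6e-12). It shares 26.3% of its exon bases with Rrnad1 on the other strand. Mrpl39, a protein specific to mitochondria, fell from 18.2, 19.8 and 19.3 to 9.14, 9.09 and 8.63 FPKM (log2 fold change -1.09 ± 0.05 SE). Mrpl18, the counterpart of the bacterial protein that binds 5S ribosomal RNA, fell from 30.4, 33.3 and 31.0 to 15.7, 16.6 and 16.2 FPKM (log2 fold change -0.97 ± 0.05 SE). Mrpl47, next to the tunnel exit in bacteria, and Mrps2 of the small subunit followed, with log2 fold changes of -0.89 ± 0.07 and -0.83 ± 0.06. In Chd8+/- these 5 genes after Mrpl13 fell by 1.11, 1.25, 0.83, 0.89 and 0.83 on the log2 scale, in the same order.

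A smaller number of genes rose, 11 in Chd8+/+ and 16 in Chd8+/-. Mrps26, a small subunit protein specific to mitochondria, had 4.39, 4.35 and 4.04 FPKM at E12.5 and 8.26, 8.23 and 7.77 FPKM at P5 in Chd8+/+ (log2 fold change 0.93 ± 0.08 SE, edgeR adjusted p = 5.2e-08). In Chd8+/- it went from 4.65, 4.30 and 4.39 to 10.1, 7.77 and 8.96 FPKM. No P5 library of either genotype overlapped an E12.5 library. Mrps34 rose by 0.70 ± 0.15 in Chd8+/+ and 0.88 ± 0.15 in Chd8+/-, with the uncertainty of its shared exons. Mrpl48, a protein of the central protuberance, rose from 3.41, 3.82 and 3.49 to 4.64, 4.8 and 4.72 FPKM in Chd8+/+ (log2 fold change 0.40 ± 0.05 SE, edgeR adjusted p = 6.7e-06). Mrps24, the counterpart of bacterial uS3, rose by 0.37 ± 0.08, Mrps18a by 0.34 ± 0.06 and Mrpl43 by 0.31 ± 0.06 on the log2 scale in the same comparison. In Chd8+/- the rises of these 4 genes were 0.52, 0.54, 0.63 and 0.29.

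By role, 24 of the 29 large subunit members with a bacterial counterpart fell in Chd8+/+ and 1 rose, Mrpl16, whose call was lost without replicate 1 or 3 of the E12.5 or replicate 1 or 2 of the P5 Chd8+/+ group (edgeR adjusted p = 0.063, 0.10, 0.070 and 0.093), and with all libraries when library totals were used without TMM (log2 fold change 0.11, adjusted p = 0.11) or all genes with at least 1 count were tested (adjusted p = 0.062). Of the 21 tested large subunit members specific to mitochondria, 13 fell and 4 rose. In the small subunit, 11 of 16 with a bacterial counterpart fell and 3 rose, and 7 of the 9 specific to mitochondria fell and 2 rose. The median log2 fold change was -0.38 over the large and -0.29 over the small subunit. Mrps30 of the large subunit fell by 0.78 ± 0.07 in Chd8+/+ and by 0.78 ± 0.07 in Chd8+/-, with the uncertainty of the exon bases it shares with B430218F22Rik on the other strand. The 3 homologues of bacterial bS18 went different ways: Mrps18a rose, while Mrps18b (-0.21 ± 0.07, edgeR adjusted p = 0.010) and Mrps18c, whose symbol falls outside the naming rule (-0.43 ± 0.07), fell. In the counts by role, Mrps18a stands among the members specific to mitochondria in spite of this homology. The call of Mrps18b was lost with DESeq2 (adjusted p = 0.092 in Chd8+/+ and 0.11 in Chd8+/-), in Chd8+/- with DESeq2's size factors in edgeR (adjusted p = 0.0625) and in edgeR without replicate 3 of the E12.5 Chd8+/+ group (0.051) or, in Chd8+/-, replicate 1 or 3 of the E12.5 group (0.090 and 0.068), and it shares 30.5% of its exon bases with Gm16279. Mrps12, of the decoding centre, rose by 0.26 ± 0.08 in Chd8+/+ and 0.40 ± 0.08 in Chd8+/-. Mrpl45, which anchors the ribosome to the inner membrane at the tunnel exit, fell by 0.50 ± 0.06 and 0.32 ± 0.06. Mrpl3, Mrpl44 and Mrps22, which cause human mitochondrial disease when mutated, fell by 0.27, 0.68 and 0.60 in Chd8+/+. Mrps16, of the same kind, had log2 fold changes of 0.08 (edgeR adjusted p = 0.37) and 0.20 (adjusted p = 0.031), and with offsets for gene length 0.37 and 0.43 (edgeR unadjusted p = 0.00058 and 0.00016). Mrps36, of the dehydrogenase complex, rose by 0.23 ± 0.07 and 0.35 ± 0.07. In Chd8+/+ the calls of Mrps12 and Mrps36 were lost without replicate 1 of the E12.5 group (edgeR adjusted p = 0.062 and 0.095), where the log2 fold change of Mrps36 was 0.14. That of Mrps16 in Chd8+/- was lost without replicate 3 of the E12.5 or replicate 1 or 3 of the P5 group (edgeR adjusted p = 0.082, 0.13 and 0.063).

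Other genes of mitochondrial gene expression, from lists of known function, gave a mixed picture. Of 15 mitochondrial translation factors, 12 fell and 1 rose in Chd8+/+ (median log2 fold change -0.40). Tufm, the elongation factor, fell by 0.66 ± 0.06 and Mtif2, an initiation factor, by 0.79 ± 0.06, while Mtif3, the other initiation factor, rose by 0.28 ± 0.08. Of 23 factors of mitoribosome assembly, 13 fell and 6 rose, with a fall of 0.93 ± 0.05 for Mterf3. Of 17 mitochondrial tRNA synthetases, 10 fell and 5 rose. Of 10 genes for the expression and copying of mitochondrial DNA, 7 fell and 1 rose, and Tfam, its packaging and transcription factor, fell by 0.92 ± 0.04. The 15 genes encoded by mitochondrial DNA moved the other way: 14 rose and none fell in Chd8+/+ (median 0.56), and 9 rose in Chd8+/-. These lists are background for the family, and none was compared with it by a test.

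Of the regulators whose motifs were searched, Nrf1 had a log2 fold change of -1.88 ± 0.04, Gabpa of -1.505 ± 0.04 and Yy1 of -0.85 ± 0.06 in Chd8+/+, and all 3 fell. The 85 cytosolic ribosomal protein genes tested had a median of -0.90, with 80 falling. All 10 progenitor markers fell between the stages (median -3.81) and all 10 neuron markers rose (median 2.97). Their summed levels went from 4541 to 4908 CPM down to 304 to 354 CPM for progenitors and from 3319 to 3971 up to 9290 to 9972 CPM for neurons, each scaled within its stage. Of 7 erythrocyte markers 6 fell, and of 8 astrocyte markers 7 rose. The part of cell composition in the stage difference was not tested.

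At E12.5 the family did not differ between the genotypes beyond the spread between libraries. edgeR called 0 of 76 genes, where 0.00553% of all genes were called, and DESeq2 called 0 (0.0102% of all genes). At an unadjusted p under 0.05 there was 1 gene, higher in Chd8+/- (2.31% of all genes), and none lower (2.84%). The median log2 fold change was 0.013, against 0.00058 for all 18081 genes, and 43 of 76 genes lay above 0 (50.2% of all). Library by library, the median of the 76 genes against the Chd8+/+ mean was -0.07, 0.06 and -0.00098 in Chd8+/+ and 0.04, -0.05 and 0.03 in Chd8+/-. The groups overlapped fully. Leaving out 1 library at a time gave medians from -0.02 to 0.04.

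In 8 members the E12.5 genotypes did not overlap, 4 higher in Chd8+/- (5.45% of all genes) and 4 lower (5.9%). Mrpl27, the counterpart of a protein near the bacterial peptidyl transferase centre, had 20.9, 21.3 and 20.4 CPM in Chd8+/+ and 24.5, 22.6 and 22.3 CPM in Chd8+/- (log2 fold change 0.15 ± 0.06 SE, edgeR adjusted p = 0.94). Mrpl43, Mrpl39 and Mrpl22 were the other higher members, with log2 fold changes of 0.13, 0.10 and 0.07. Mrpl33 had 20.7, 20.6 and 20.6 CPM in Chd8+/+ and 19.2, 18.7 and 19.2 CPM in Chd8+/- (log2 fold change -0.12 ± 0.05 SE, edgeR adjusted p = 0.94). Mrps18a, Mrps11 and Mrps25 were the other lower members, at -0.10, -0.09 and -0.08. None of the 8 passed the adjusted threshold.

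At P5 the family lay slightly higher in Chd8+/- neocortex as a group, with no single gene past edgeR's adjusted threshold. edgeR called 0 of 76 genes (0.00536% of all genes), and the smallest adjusted p was 0.095. At an unadjusted p under 0.05, 26 were higher in Chd8+/- and none was lower, against 8% and 9.77% of all genes. The median log2 fold change was 0.11, or 7.87% above Chd8+/+, against 0.0017 for all 18666 genes, and 65 of 76 genes lay above 0 (50.4% of all). The genotypes did not overlap in 27 members, 26 higher (11% of all genes) and 1 lower (12.2%). DESeq2's Wald test called 6 of the 76 genes, all higher (1.68% of all genes), and none lower (3.55%). The 6 were Mrpl12, Mrpl20, Mrpl23, Mrpl28, Mrpl48 and Mrps18a.

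Library by library, the median of the 76 genes against the Chd8+/+ mean was -0.01, 0.04 and -0.03 in Chd8+/+ and 0.18, 0.04 and 0.10 in Chd8+/- at P5. Replicate 1 of Chd8+/- was the highest, and replicate 2 (0.0398) lay just above the highest Chd8+/+ library (0.0367). The members' share of all counts was 0.192%, 0.194% and 0.190% in Chd8+/+ and 0.218%, 0.200% and 0.203% in Chd8+/-. Without replicate 1 of Chd8+/-, the median was 0.07 and 14 genes had an unadjusted p under 0.05, and DESeq2 called none. Without replicate 3, the library that stood apart, the median was 0.13, 22 genes had an unadjusted p under 0.05 and neither edgeR nor DESeq2 called any. Without replicate 2, edgeR called 5 and DESeq2 9, and without replicate 3 of Chd8+/+ DESeq2 called 3 and edgeR none. Neither called any member without replicate 1 or without replicate 2 of Chd8+/+. The shares of all genes in the fits with a library left out are not given here, so these counts cannot be set against them. The calls of single genes thus varied with the library, while the median stayed above 0 whichever library was left out, from 0.07 to 0.13.

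**Figure D3:**
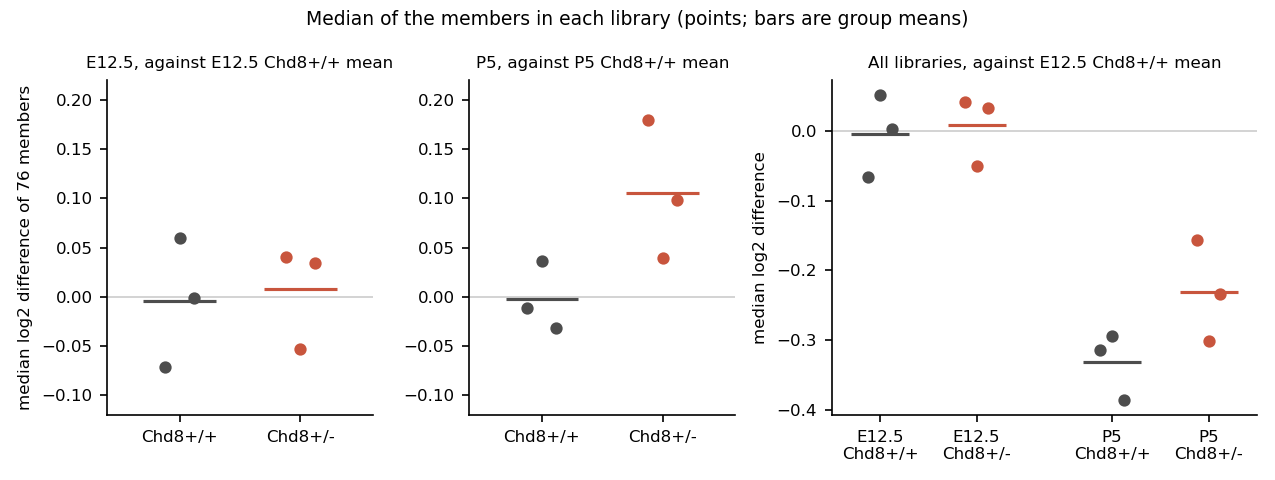
Median log2 difference of the 76 members in each library, at E12.5 and at P5 against the Chd8+/+ mean of the same stage (left and middle) and in all 12 libraries against the E12.5 Chd8+/+ mean (right), with bars for group means (n = 3). The genotypes overlap at E12.5, at P5 the Chd8+/- points lie from 0.04 to 0.18 and the Chd8+/+ points from -0.03 to 0.04, and every P5 library lies below every E12.5 library.

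Mrpl48, the protein of the central protuberance, had the smallest p at P5. Its P5 libraries had 27.9, 28.7 and 28.4 CPM in Chd8+/+ and 34.4, 32.4 and 33.6 CPM in Chd8+/- (log2 fold change 0.24 ± 0.05 SE, edgeR adjusted p = 0.095, DESeq2 adjusted p = 0.0083). The groups were apart by more than their own range. Mrpl23, whose bacterial counterpart lies at the tunnel exit and which has the copy Mrpl23-ps1, had 14.5, 15.3 and 15.8 CPM against 20.3, 16.97 and 18.9 CPM (0.30 ± 0.07, adjusted p = 0.12 by edgeR and 0.021 by DESeq2). Mrpl20, which in bacteria is needed early in assembly of the large subunit, had 40.9, 42.8 and 41.4 CPM against 53.2, 44.2 and 50.5 CPM (0.24 ± 0.06, adjusted p = 0.12 by edgeR and 0.015 by DESeq2). In both, replicate 2 of Chd8+/- lay closest to Chd8+/+.

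Mrpl28, the counterpart of bacterial bL28, had 35.9, 36.0 and 36.7 CPM in Chd8+/+ and 46.8, 38.2 and 43.2 CPM in Chd8+/- (0.24 ± 0.07, adjusted p = 0.13 by edgeR and 0.022 by DESeq2). Mrpl12, the stalk protein that also binds the mitochondrial RNA polymerase, had 39.3, 41.4 and 38.2 CPM against 52.3, 41.3 and 48.9 CPM (0.26 ± 0.08, adjusted p = 0.14 by edgeR and 0.018 by DESeq2). In Mrpl12 the groups overlapped, since replicate 2 of Chd8+/- lay just under the highest Chd8+/+ library. Mrps18a had 33.2, 34.0 and 33.3 CPM against 42.5, 35.6 and 38.02 CPM (0.21 ± 0.06, adjusted p = 0.15 by edgeR and 0.049 by DESeq2). Mrpl45, the membrane anchor, had 28.5, 28.4 and 26.9 CPM against 33.2, 29.96 and 31.7 CPM (0.18 ± 0.05, adjusted p = 0.15 by edgeR and 0.096 by DESeq2). The single member whose genotypes did not overlap in the other direction was Mrpl19, with 27.4, 27.5 and 25.9 CPM in Chd8+/+ and 25.6, 25.3 and 25.4 CPM in Chd8+/- (-0.08 ± 0.05, adjusted p = 0.41 by edgeR). It shares 36.0% of its exon bases with Gcfc2.

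**Figure D4:**
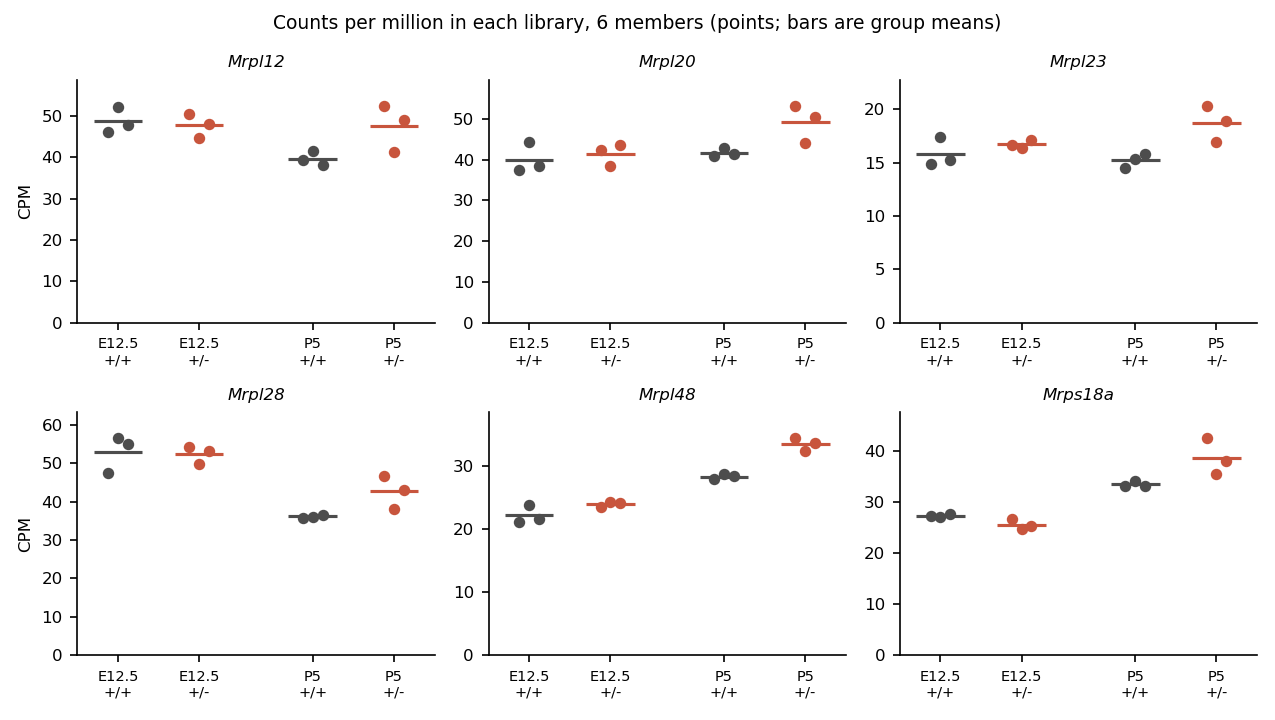
Level in CPM in each library (points; bars are group means, n = 3), scaled within each stage, for the 6 members that DESeq2 called at P5, all higher in Chd8+/-. The P5 Chd8+/- points lie above the Chd8+/+ points in every panel except that of Mrpl12, where they overlap, and the E12.5 groups overlap or lie close together.

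All 6 genes that DESeq2 called at P5 belong to the large subunit, Mrps18a included, and edgeR called no member of either subunit. The absence of small subunit calls did not hold under every setting: edgeR called Mrps24 and Mrps33 when all genes with at least 1 count were tested, and DESeq2 called Mrps24 and Mrps26 without replicate 2 of the P5 Chd8+/- group. Of the 50 tested large subunit members, 41 lay above 0 and 16 had an unadjusted p under 0.05 (median log2 fold change 0.08). Of the 25 small subunit members, 23 lay above 0 and 10 had an unadjusted p under 0.05 (median 0.13), including Mrps24 (0.23 ± 0.07), Mrps16 (0.20 ± 0.08), Mrps33 (0.19 ± 0.06) and Mrps12 (0.18 ± 0.07). All 16 small subunit members with a bacterial counterpart lay above 0. Mrpl10, which holds the stalk to which Mrpl12 belongs, had a log2 fold change of 0.14 ± 0.05 (edgeR adjusted p = 0.19). Mrps30, Mrps18b, Mrpl3, Mrpl44 and Mrps22 had -0.01, 0.02, 0.05, 0.07 and -0.05, each with an adjusted p over 0.4 by edgeR. The 48 members that share no exon bases with another gene had a median of 0.10 (0.09 with offsets for gene length), and the 28 that do had 0.11 (0.07 with these offsets).

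Some technical and tissue measures moved with genotype at P5. Across all genes tested, the log2 fold change fell with gene length (Spearman correlation -0.24 over genes), and the members are short, with a median of 1929.5 bases against 3466.5. Deviations from the mean correlated with gene length at 0.17, 0.08 and 0.17 in the Chd8+/+ libraries and -0.27, 0.0012 and -0.14 in Chd8+/-. With offsets that remove this trend, the members' median was 0.09, 59 lay above 0, 21 had an unadjusted p under 0.05, edgeR called none and DESeq2 called 5. The median of all genes tested was then 0.01. The shares of all genes with offsets are not given here, so these counts cannot be set against them. Members at or under the family's median length had a median of 0.12 without and 0.08 with these offsets, and longer ones had 0.07 without and 0.09 with them, so that the order of the 2 classes turned.

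Markers of tissues next to the neocortex were lower in P5 Chd8+/-: the 6 of choroid plexus had a summed level of 17.7 to 20.9 CPM against 30.1 to 37.0 CPM in Chd8+/+, and all 6 lay below 0. The 7 of striatum had 176.4 to 216.8 CPM against 239.3 to 262.2 CPM, all 7 below 0 at an unadjusted p under 0.05. Endothelial markers had 194.8 to 221.8 CPM against 223.8 to 248.6 CPM, with 6 of 7 below 0. Meningeal markers overlapped, at 281.2 to 368.8 CPM against 291.3 to 322.8 CPM, with 6 of 6 above 0. Interneuron markers had 544.9 to 609.1 CPM against 627.2 to 640.9 CPM, with 7 of 8 below 0 and 3 lower at an unadjusted p under 0.05. Progenitor markers lay below 0 in 9 of 10, with 3 lower and 1 higher at that threshold (median -0.13). DESeq2 called 3 choroid plexus, 5 striatal, 4 endothelial, 1 microglial and 1 interneuron marker, all lower. None of these lists had a marker at 3 or fewer counts in every library. Their part in the members' difference was not tested.

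Some related lists lay mostly above 0 at P5, as the members did, and others near or below 0. The 15 translation factors had a median log2 fold change of -0.0075, the 23 assembly factors 0.04 and the 17 tRNA synthetases 0.09, with 14 of the 17 above 0 and 6 higher at an unadjusted p under 0.05. The 17 include Lars2. Their summed level was 6573 CPM in replicate 3 of Chd8+/- and 1047 to 1339 CPM in the other P5 libraries. Values of this list without that replicate are not given here. The 15 genes encoded by mitochondrial DNA had a median of -0.13, with 4 lower at an unadjusted p under 0.05 and none higher. Their share of counts was 3.54% to 3.90% in Chd8+/+ and 3.26% to 3.80% in Chd8+/-, overlapping. Of the 85 cytosolic ribosomal protein genes, 77 lay above 0 and 11 were higher at an unadjusted p under 0.05, with none lower (median 0.08, and 0.04 with offsets for gene length). Of the 6 mitochondrial ribosomal protein genes with other names, 5 lay above 0 (median 0.10). Of 16 genes for mitochondrial import and mass, 2 were higher and 1 lower at an unadjusted p under 0.05. edgeR called no gene of these lists between the genotypes at an adjusted p under 0.05, and DESeq2 called 3 cytosolic ribosomal protein genes and 1 assembly factor, all higher.

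Whether the genotype difference itself differed between the stages was tested with an interaction term. edgeR called 0 of 76 members (0% of all genes), and DESeq2 called 0 (0.0245% of all genes). At an unadjusted p under 0.05, 6 members had a more positive difference at P5 (3.15% of all genes) and none a more negative one (6.87%). The interaction lay above 0 in 59 of 76 members (45.8% of all genes), with a median of 0.09, against -0.019 for all genes. Mrps18a had the smallest p, with genotypes that did not overlap at either stage and lay in opposite orders: at E12.5 its Chd8+/- libraries had 26.6, 24.7 and 25.3 CPM against 27.2, 27.1 and 27.6 CPM in Chd8+/+. Its interaction was 0.29 ± 0.09 SE (edgeR adjusted p = 0.36). Across the 76 genes, the genotype differences at the 2 stages, which share no library, had a Pearson correlation of 0.11. Of the 26 genes with an unadjusted p under 0.05 at P5, 17 lay above 0 at E12.5 and 9 below, with a median of 0.02.

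**Figure D5:**
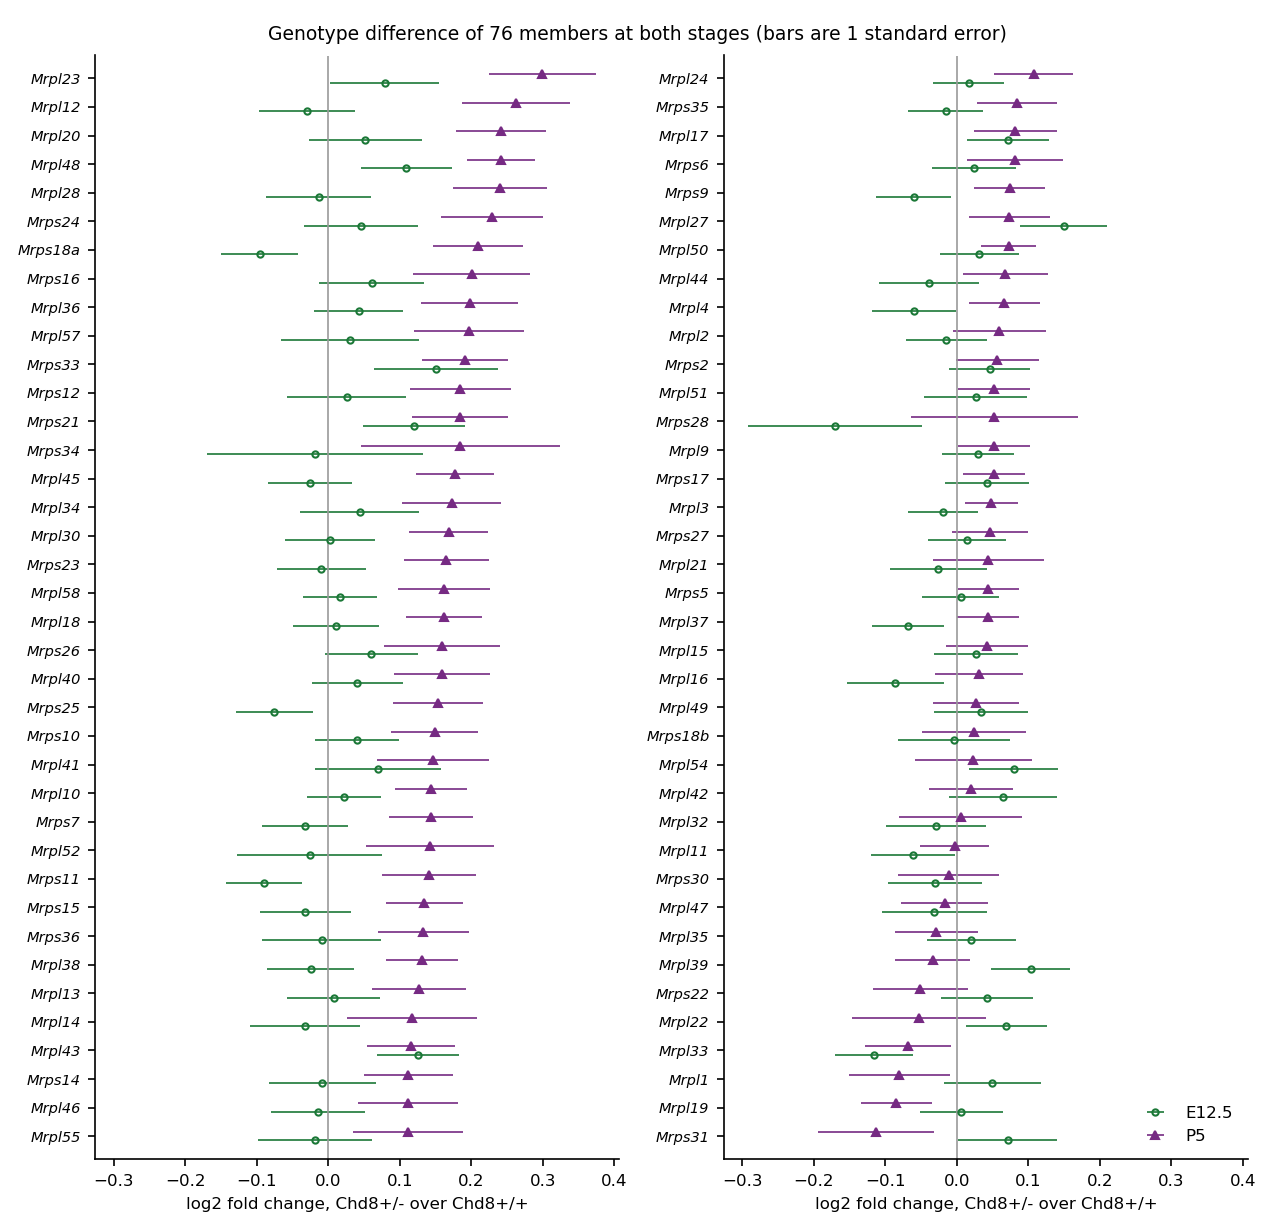
Log2 fold change of Chd8+/- over Chd8+/+ for each of the 76 members at E12.5 (open circles) and P5 (triangles), ordered by the P5 value, with bars of 1 standard error. At P5 65 of 76 points lie above 0, with the largest at 0.30 for Mrpl23, and at E12.5 the points scatter around 0.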

How the data were processed

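Total RNA from neocortex was selected for mRNA and sequenced as stranded paired-end libraries. Per the labels and file headers, the authors trimmed reads with Trim Galore 0.4.1, aligned them to GRCm38 with TopHat2 2.1.0 and deposited raw counts of read pairs per gene and run from featureCounts 1.5.0. The P5 command did not use strand, and the E12.5 command is not given in the sources used here. The 2 runs of each library were summed. Genes passing filterByExpr were tested with edgeR 4.0.16 (TMM, quasi-likelihood, Benjamini-Hochberg over all genes tested, threshold 0.05) in R 4.3.3. Genotypes were compared within the 6 libraries of a stage, and stages and the interaction in 1 model of 12 libraries. Alternatives were DESeq2 1.42.0, limma-voom 3.58.1, other scalings and filters, loess offsets for gene length (span 0.5), a replicate block and leaving out each library. DESeq2 with length offsets or with a library left out was added after seeing the data. Scripts were tested on simulated data. CPM used TMM factors within a stage and FPKM those over 12 libraries. Depth limits the precision of genes with few counts.

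Values are given for members whose genotypes did not overlap (up to 6 with the smallest p per direction), the 6 largest rises and falls by stage called in both genotypes, the 5 highest and 5 lowest levels, DESeq2 calls at P5, and members of known role. The members and lists were chosen with earlier results of these data known. Mrps33, Mrpl16, Tufm, Mtif2, Mtif3, Mterf3 and Tfam were named after their values were seen. Some neocortical markers are not reported here.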

Additional observations from a re-analysis of the deposited data

How the results depend on the processing

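At P5, the count of members called between genotypes, 0 with edgeR, was 8 when all genes with at least 1 count were tested, 6 with DESeq2 and 5 with DESeq2 and length offsets, and ranged from 0 to 9 with a library left out. Apart from DESeq2 with all libraries, the shares of all genes under these alternatives are not given here. Whether the members or all genes gained calls can therefore not be seen. The count at an unadjusted p under 0.05, 26, was 16 with DESeq2 and length offsets and ranged from 7 to 28 with a library left out, lowest without replicate 1 of Chd8+/- under DESeq2. At E12.5 that count, 1, was 0 with all genes of at least 1 count, DESeq2, the replicate block or DESeq2 with length offsets, 2 with all 12 libraries in 1 model, and 0 to 5 with a library left out. From E12.5 to P5 in Chd8+/+, 6 to 12 members rose with a library left out. The cause of these shifts was not tested. The family's median at P5 lay between 0.07 and 0.13, and by stage between -0.38 and -0.28 in Chd8+/+ and between -0.29 and -0.21 in Chd8+/-, under all alternatives run. Deviations of same-numbered libraries correlated at -0.23, -0.10 and -0.09 at E12.5, against -0.10 to 0.21 for different numbers, which showed no pairing. At P5 they correlated at 0.23, 0.11 and 0.04, against -0.19 to 0.10 for different numbers. These values do not settle whether replicate numbers pair the P5 libraries. With the replicate block, 0 members were called between genotypes at either stage, 23 had an unadjusted p under 0.05 at P5, and 62 and 59 were called by stage, without Mrps16 in Chd8+/- (edgeR adjusted p = 0.061). Among the members given values, the sign reversed in 4 small differences that passed no test: at P5, Mrps18b was -0.0061 with length offsets and -0.0057 with DESeq2 and length offsets, and with a library left out it ranged from -0.0018 to 0.061, Mrps22 from -0.10 to 0.013 and Mrps30 from -0.080 to 0.041. By stage in Chd8+/+, Mrps16 ranged from -0.00072 to 0.14 with a library left out. No other of these differences changed sign.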
